A study of Rattus norvegicus with 18 samples.

Results

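The contractile apparatus of smooth muscle was followed through 10 genes, Acta2, Actg2, Myh11, Tagln, Cnn1, Des, Myl9, Lmod1, Tpm2 and Smtn, of the 14217 genes measured in scrapings of the rat jejunal mucosa. The members were the 13 probe sets whose platform annotation gave 1 symbol equal to one of these names, and 3 of the genes (Myh11, Tpm2 and Smtn) had 2 probe sets. Total RNA from the scrapings was hybridised to 18 Affymetrix arrays in 6 groups of 3, lettered A to C. The rats were male Sprague Dawley animals of 6 to 8 weeks, dosed once daily by oral gavage with abemaciclib at 120 or 36 mg/kg/day, ribociclib at 300 mg/kg/day, palbociclib at 100 or 30 mg/kg/day, or vehicle (0.5% methyl cellulose). The 3 compounds inhibit CDK4 and CDK6, kinases that drive entry into S phase, and the study set their effects on the intestine side by side. Below, a number after a compound is its daily dose.

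The labels give no dosing time for an array, and the design text names 10 rats in a group and both 4 and 15 days. They do not say that the arrays of a group came from separate animals, so the p-values speak only for the variation among these arrays, which may be technical. The vehicle arrays carry the palbociclib vehicle. Abemaciclib and ribociclib were dissolved in another one, so for them the compound and its vehicle cannot be told apart. One abemaciclib 120 array, replicate B, bears 100 in its title and 120 in its treatment label, and was grouped by the treatment label. Doses differed between compounds, so compounds are set side by side and not compared. In bulk RNA, fewer muscle cells in a scraping and less RNA per muscle cell cannot be told apart.

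Smooth muscle contracts when calcium-activated kinase phosphorylates the light chain of myosin II and myosin heads pull on actin filaments. In the small intestine the muscle lies in the muscularis mucosae under the crypts, in thin strands that run up the villus core, in vessel walls and in the thick outer muscle layers. A mucosal scraping is mostly epithelium, and the muscle in it depends on how deep the blade goes. Acta2 is also made by pericytes and by the myofibroblasts beside the crypts. Many genes of the apparatus are activated by serum response factor and its partner myocardin, which bind DNA at CArG boxes.

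The stretch around the gene start is shown for 3 members, the vascular-type actin Acta2, which moved apart from most other members on these arrays, and the calponin Cnn1 and the desmin Des, which moved with Myh11. The sequences are RefSeq's for GRCr8, 5′ to 3′, with 250 bases before and 50 after the start. They lie at chr1:241172454-241172753 on the minus strand, chr8:28908187-28908486 on the plus strand and chr9:84299376-84299675 on the plus strand. Capitals mark CArG-like matches, here CC, then 6 letters of which at most 1 is C or G, then GG, a form that reads the same way on both strands.
Acta2: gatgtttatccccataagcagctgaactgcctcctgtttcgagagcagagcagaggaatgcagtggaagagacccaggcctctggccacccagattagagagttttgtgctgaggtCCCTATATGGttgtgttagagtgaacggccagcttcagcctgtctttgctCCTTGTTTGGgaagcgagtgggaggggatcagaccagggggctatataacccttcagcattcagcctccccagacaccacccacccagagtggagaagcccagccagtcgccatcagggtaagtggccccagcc
Cnn1: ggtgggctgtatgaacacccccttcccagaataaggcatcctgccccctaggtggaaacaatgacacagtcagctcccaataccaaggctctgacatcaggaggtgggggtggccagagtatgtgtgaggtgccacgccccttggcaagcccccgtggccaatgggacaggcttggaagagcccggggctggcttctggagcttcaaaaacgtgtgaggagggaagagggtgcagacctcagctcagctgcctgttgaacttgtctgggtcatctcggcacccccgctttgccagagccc
Des: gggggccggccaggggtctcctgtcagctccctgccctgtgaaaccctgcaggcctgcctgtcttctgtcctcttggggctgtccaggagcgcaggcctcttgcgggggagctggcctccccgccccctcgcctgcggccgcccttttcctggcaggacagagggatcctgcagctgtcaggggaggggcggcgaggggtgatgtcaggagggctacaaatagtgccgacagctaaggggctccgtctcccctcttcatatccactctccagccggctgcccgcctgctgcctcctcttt
Acta2 held 2 such matches, starting 134 and 84 bases before the gene start, and Cnn1 and Des held 0. Of 33469 promoters in the table, 9.42% held at least 1 match and 0.846% at least 2. Windows were also given for Actg2, Tpm2 and Smtn, with 0 matches each. The start used for Actg2 lay 10340 bases inside the gene's outer end, that for Tpm2 340 and that for Smtn 11. The windows of Actg2 and Tpm2 therefore do not cover that outer end, whereas the window of Smtn does. A match is a run of letters and not a measured binding site, and its absence from a window says only that the letters are not in it.

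Each value is a log2 signal, so a difference of 1 is a doubling. Array medians over all probe sets lay between 5.41 and 5.51, pairs of arrays correlated between 0.918 and 0.993, and 0 pairs were identical. The epithelial marker Epcam, an adhesion molecule, lay between 13.46 and 13.84 on the 18 arrays, and Vil1, an actin bundler of the brush border, between 13.23 and 13.63. Of the members, Lmod1 lay below the median of its array on 18 of 18 arrays, Cnn1 on all but 1, and Actg2 and Smtn were above it on 6 and 5 arrays. Values of these genes on their dim arrays were not shown to be above background.

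Muscle signal differed most between single arrays. Ribociclib 300 replicate A stood apart, with 8 of 10 members at their highest of the 18 values there, where 4.07% of all genes had theirs. The mean of the 10 members on this array was 1.69 above the vehicle mean, and 10 of 10 members exceeded all 3 vehicle arrays, as did 28.4% of all genes. The other 2 ribociclib arrays had member means 0.19 (replicate B) and 0.45 (replicate C) above the vehicle mean. Results for ribociclib are therefore given with and without replicate A.

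Next in muscle signal came abemaciclib 36 replicate B, with a member mean of 0.83 above the vehicle mean and 9 of 10 members above every vehicle array (23.0% of all genes). Abemaciclib 120 replicate B had a mean of 0.82 with 8 members above (32.9% of all genes). Palbociclib 100 replicate B had 0.58 with 9 members above (25.1% of all genes). These arrays came from 3 groups, and the other arrays of those groups lay lower. Abemaciclib 120 replicates A and C had the lowest means of all 18, with -0.24 and -0.17, against 0.82 on replicate B of the same group. On replicate A 5 members, Tagln, Cnn1, Des, Myl9 and Tpm2, lay below every vehicle array, as did 40.7% of all genes. On replicate C 4 members did (35.8% of all genes). The vehicle arrays themselves ranged from -0.13 to 0.20.

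On the remaining arrays fewer members stood above all vehicle arrays, except on ribociclib 300 C with 9 (35.7% of all genes) and abemaciclib 36 C with 6 (39.5%). Abemaciclib 120 A had 2, Lmod1 and Smtn (35.0% of all genes), and abemaciclib 120 C had 1, Smtn (35.1%). Abemaciclib 36 A had 2 (31.7% of all genes) and ribociclib 300 B had 3, Acta2, Actg2 and Tagln (37.0%). On each of these 4 arrays the share of members was below that of all genes. Palbociclib 100 A had 2 (24.7% of all genes) and palbociclib 100 C had 3 (36.9%). Palbociclib 30 A had 1 (27.6% of all genes), B had 1 (23.4%) and C had 0 (25.8%).

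**Figure D1:**
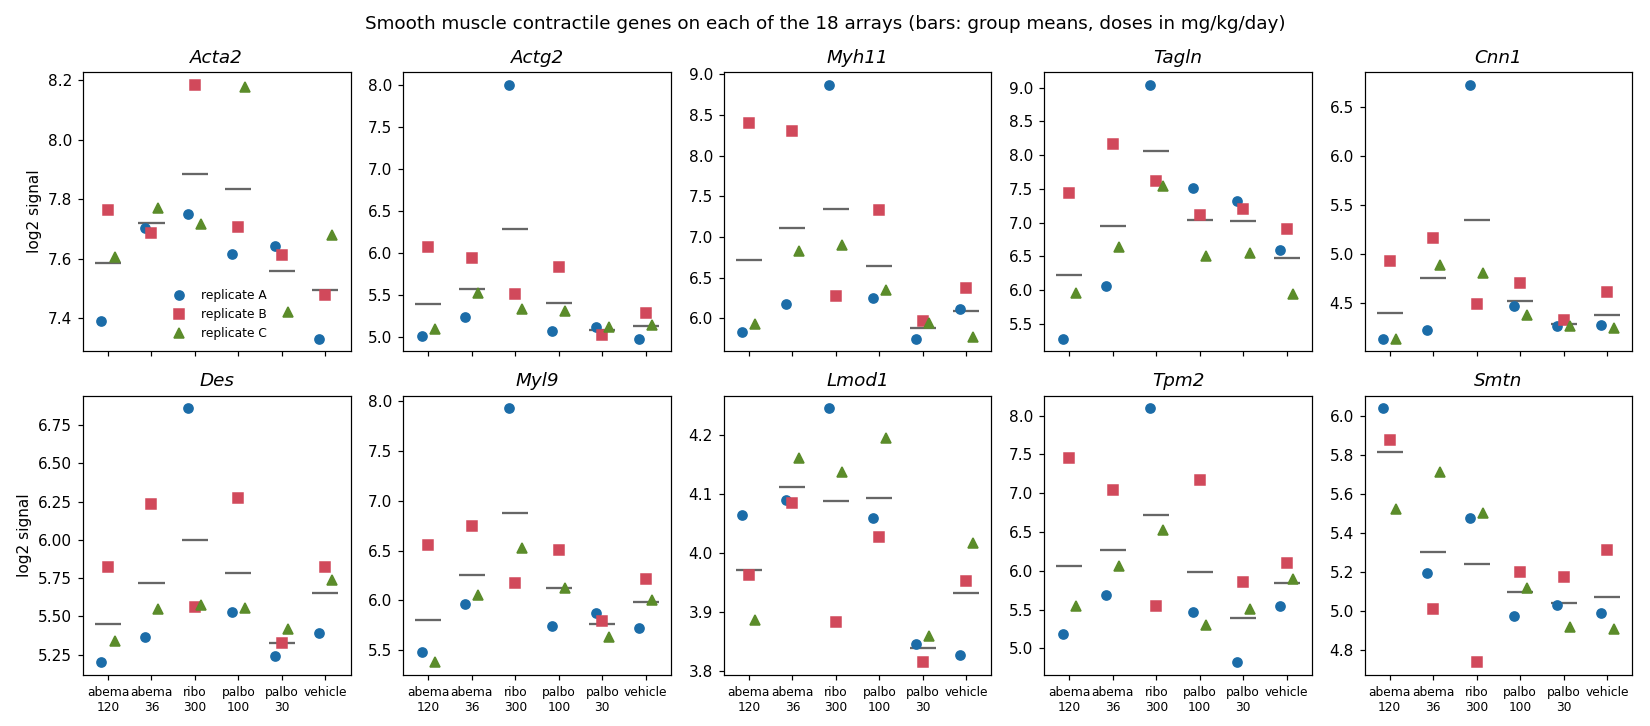
Log2 signal of each of the 10 genes (y axis, own scale per gene) on the 3 arrays of each group (x axis, doses in mg/kg/day), with the group mean as a bar. The circle of ribociclib 300 replicate A is the highest point in 8 of the 10 panels, while in Acta2 and Smtn it is not.

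Myh11 encodes the smooth muscle myosin heavy chain, the motor of the apparatus. Its signal was 5.83, 8.40 and 5.92 on the abemaciclib 120 arrays A, B and C, and 6.18, 8.31 and 6.83 at abemaciclib 36. It was 8.88, 6.27 and 6.89 with ribociclib 300, 6.24, 7.33 and 6.35 with palbociclib 100, 5.75, 5.96 and 5.94 with palbociclib 30, and 6.11, 6.37 and 5.77 with vehicle. In each treated group but palbociclib 30 a single array stood well above the other arrays of its group, and the 3 vehicle arrays lay closer together. The highest value was 8.74-fold the lowest. A second, dimmer Myh11 probe set ranged from 3.92 to 4.63 and was highest on abemaciclib 36 B, ribociclib 300 A and abemaciclib 120 B. These are the 3 highest arrays of the first probe set. The second lay above the array median on 0 arrays, so it was not shown to be above background and says little.

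Myl9, the regulatory light chain that the kinase phosphorylates, was 5.48, 6.56 and 5.38 on the abemaciclib 120 arrays and 5.96, 6.74 and 6.06 at abemaciclib 36. Ribociclib 300 gave 7.93, 6.18 and 6.53, palbociclib 100 gave 5.74, 6.50 and 6.13, palbociclib 30 gave 5.88, 5.79 and 5.63, and vehicle gave 5.72, 6.21 and 6.01. Its 3 highest arrays were the 3 highest of Myh11.

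Of the 2 smooth muscle actins, Actg2, the isoform of visceral muscle, was 8.01 on ribociclib 300 replicate A, against 5.51 and 5.34 on replicates B and C. It was 5.01, 6.07 and 5.09 with abemaciclib 120, 5.24, 5.94 and 5.52 with abemaciclib 36, 5.08, 5.84 and 5.31 with palbociclib 100, 5.12, 5.02 and 5.12 with palbociclib 30 and 4.98, 5.28 and 5.14 with vehicle. The gap of 1.93 between its highest and its next array was the widest among the 10 members. Acta2, the isoform of vessels, pericytes and myofibroblasts, behaved otherwise. It was 7.39, 7.76 and 7.61 with abemaciclib 120, 7.70, 7.69 and 7.77 with abemaciclib 36, 7.75, 8.19 and 7.72 with ribociclib 300, 7.62, 7.71 and 8.18 with palbociclib 100, 7.64, 7.61 and 7.42 with palbociclib 30 and 7.33, 7.48 and 7.68 with vehicle. Its 2 highest arrays were ribociclib 300 B and palbociclib 100 C, and its whole range was 0.85, against 3.03 for Actg2. A further 5 probe sets annotated to both Acta2 and the cardiac actin Actc1 were not members. In 4 of these 5 the same 2 arrays were the highest. The 5 probe sets lay above the array median on only 4, 1, 0, 0 and 0 arrays, however. Most of their values were thus not shown to be above background. Their signal also cannot be assigned to Acta2 rather than Actc1, so they say little of Acta2.

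Genes of other actin-binding proteins moved to different extents. Tpm2, a tropomyosin, was 8.10 on ribociclib 300 A, 7.46 on abemaciclib 120 B, 7.17 on palbociclib 100 B and 7.04 on abemaciclib 36 B, and between 4.82 and 6.52 on the other 14 arrays. Its second probe set went otherwise, with 4.56 on ribociclib 300 A, its highest value, 4.76, on palbociclib 100 C and its lowest, 4.12, on abemaciclib 36 B. That probe set lay above the array median on 0 arrays, so it was not shown to be above background. Cnn1, calponin 1, which binds actin and damps the myosin ATPase, was 6.73, 4.49 and 4.81 on the ribociclib 300 arrays and 4.28, 4.61 and 4.24 on the vehicle arrays. On the other 12 arrays it lay between 4.14 and 5.17. Tagln, the calponin relative SM22 alpha, was 9.04, 7.61 and 7.54 with ribociclib 300 and 6.59, 6.91 and 5.95 with vehicle, so these groups did not overlap. Its lowest value, 5.28, was on abemaciclib 120 A, and its range of 3.76 was the widest of the members. Lmod1, leiomodin 1, which nucleates actin filaments, stayed between 3.81 and 4.25 throughout, with its highest value on ribociclib 300 A. It lay below the median of every array, so its narrow range says little.

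Des, desmin, the intermediate filament that ties contractile units together, was 6.86 on ribociclib 300 A, 6.27 on palbociclib 100 B and 6.24 on abemaciclib 36 B, and between 5.20 and 5.82 on the other arrays. Smtn, smoothelin, which binds actin in contractile smooth muscle, was 6.04, 5.88 and 5.52 with abemaciclib 120 and 4.99, 5.31 and 4.91 with vehicle, where all 3 abemaciclib arrays lay above all 3 vehicle arrays. It was 5.48, 4.73 and 5.50 with ribociclib 300, so the array that led the other members did not lead here. The second Smtn probe set had 3.86, 4.16 and 3.90 with abemaciclib 120 and 4.11, 4.16 and 4.10 with vehicle. It lay above the array median on 0 of 18 arrays, so it was not shown to be above background and says little for or against a change.

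The spread between arrays of 1 group was wide for these genes. The within-group SD had a median of 0.55 over the members, at percentile 91.8 of all genes, against a median of 0.242 over all genes. Myh11 (SD 0.97, percentile 98.9), Tpm2 (0.92, percentile 98.6), Tagln (0.79, percentile 97.5) and Actg2 (0.69, percentile 96.2) varied most. Acta2 (0.20, percentile 38.3), Smtn (0.28, percentile 58.4) and Lmod1 (0.10, percentile 4.4) did not share that width. The groups accounted for a median of 39.8% of the variance of a member and 46.7% of that of any gene. These shares were not corrected for the number of groups. With so few arrays in a group, spread between arrays alone yields a sizeable share, so neither value measures an effect of treatment.

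Members were set against Myh11 over the 18 arrays, with Pearson's r, Spearman's rho and permutation tests. With 7 other genes and the RNA quality measure this made 17 relations, and p-values were adjusted over their 34 tests. Tpm2 had r = 0.93 and rho = 0.79 (adjusted p = 6.8e-05 and 0.000835), Myl9 r = 0.88 and rho = 0.85 (adjusted p = 6.8e-05 and 0.000146), and Cnn1 r = 0.87 and rho = 0.92 (adjusted p = 6.8e-05 for both, from 1e-05, the smallest p that the permutations can give). Actg2 had r = 0.86 and rho = 0.84 (adjusted p = 6.8e-05 and 0.000146), Des r = 0.85 and rho = 0.80 (adjusted p = 0.00051 and 0.000529) and Tagln r = 0.73 and rho = 0.65 (adjusted p = 0.000963 and 0.0122). These 6 genes therefore followed Myh11 from array to array. Without ribociclib 300 A and abemaciclib 120 B, the arrays farthest from the Myh11 median, r was 0.85 for Tpm2, 0.83 for Myl9, 0.92 for Cnn1, 0.90 for Actg2, 0.82 for Des and 0.60 for Tagln. Between deviations from the group means, which take out any difference between treatments, r was 0.93, 0.94, 0.88, 0.85, 0.89 and 0.86 for the same genes in that order.

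The 3 remaining members followed less. Lmod1 had r = 0.50 and rho = 0.55 (adjusted p = 0.0645 and 0.044), Smtn r = 0.30 and rho = 0.31 (adjusted p = 0.333 and 0.309) and Acta2 r = 0.22 and rho = 0.60 (adjusted p = 0.492 and 0.0241), so that the rank test passed for Acta2 and Lmod1 and the linear one did not. Without the same 2 arrays r was 0.47 for Lmod1, -0.01 for Smtn and 0.20 for Acta2. Between deviations from the group means it was 0.25 for Lmod1, 0.25 for Smtn and -0.09 for Acta2. Of the 7 genes tested that are no member, 1 passed, Dcn, decorin of fibroblasts (r = 0.79, rho = 0.56, adjusted p = 0.000748 and 0.0397, and r = 0.58 without the 2 arrays). Epcam (r = 0.20, rho = 0.31), Vil1 (-0.02 and -0.13), the junction protein Cdh1 (0.44 and 0.38), Pecam1 of endothelium (0.33 and 0.40), Elavl4 of enteric neurons (-0.18 and 0.08) and Ano1, the chloride channel of interstitial cells of Cajal (-0.22 and -0.17), had adjusted p = 0.135 or more in the permutation tests. These single genes do not stand for their cell types. Elavl4 lay between 3.69 and 4.24, below the median of every array, so it was not shown to be above background and its test says little. As a description over the same 18 arrays with no test, r with Myh11 was 0.73 for Plvap and 0.62 for Esam, both of blood endothelium, 0.83 for Etv1 of the Cajal cell list, 0.89 for Pdgfra of fibroblasts, 0.75 for Rgs5 of pericytes and 0.90 for Cald1. RNA quality, read as the signal of the 3′ control probe set of beta-actin less that of the 5′ one, had r = -0.02 and rho = 0.06 with Myh11 (adjusted p = 0.946 and 0.874, permutation tests).

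**Figure D2:**
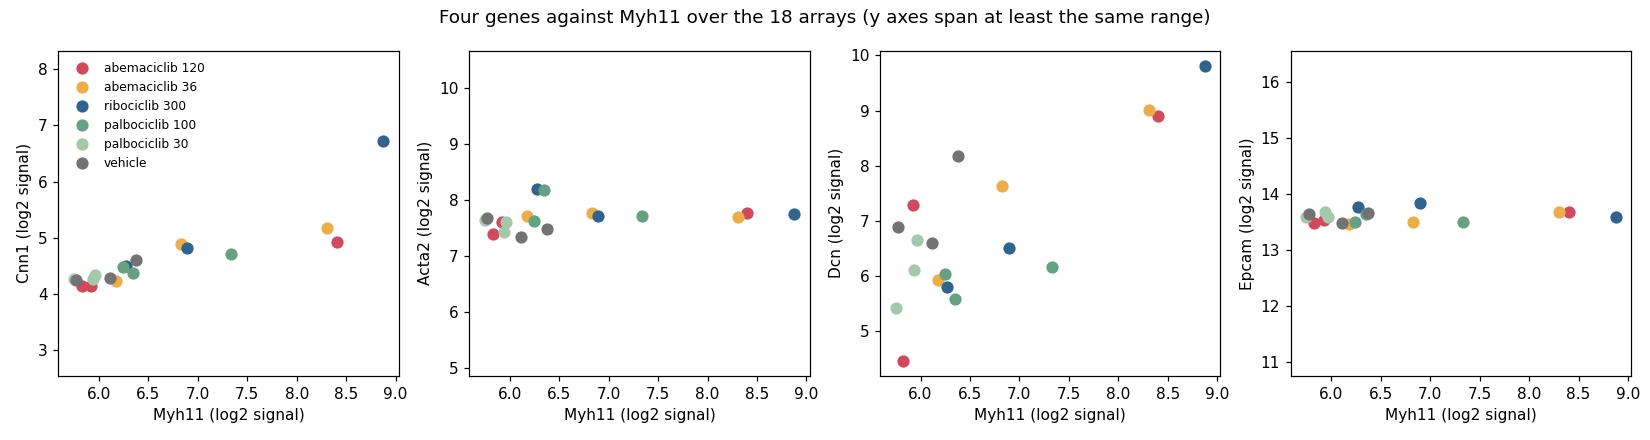
Log2 signal of Cnn1, Acta2, Dcn and Epcam (y axes) against that of Myh11 (x axes) on the 18 arrays, coloured by group. Cnn1 and Dcn climb with Myh11 (r = 0.87 and 0.79) and Acta2 and Epcam do so far less (r = 0.22 and 0.20).

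Genes of neighbouring cell types were read on the same arrays, as the mean of a list less its vehicle mean. On ribociclib 300 A fibroblast genes were 1.23 above the vehicle mean, pericyte genes 1.17, genes of lymphatic endothelium 0.82 and of blood endothelium 0.77. Of 12 fibroblast genes 7 had their highest value there, as did 6 of 8 pericyte genes and 7 of 9 genes of blood endothelium. Of 5 genes of lymphatic endothelium 1 did, and of all genes 4.07%. Genes of enteric neurons (0.10), enteric glia (-0.09), interstitial cells of Cajal (0.19) and epithelium (-0.08) lay nearer to the vehicle mean on that array. On it 2 of 14 neuron genes, 1 of 6 glia genes and 3 of 5 Cajal cell genes were above the array median. Most genes of neurons and glia were thus not shown to be above background there. Pericyte genes above the array median numbered 4 of 8 on that array, against 2, 0 and 1 on the vehicle arrays.

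The same held in part on the other arrays with high member signal. Abemaciclib 36 B had fibroblast genes at 0.80 and pericyte genes at 0.53, and abemaciclib 120 B had them at 0.66 and 0.41. On palbociclib 100 B, by contrast, fibroblast genes were at -0.30, pericyte genes at 0.07 and blood endothelium at -0.15, while 9 of 10 members exceeded every vehicle array. On abemaciclib 120 A fibroblast genes were at -1.46, the lowest of all arrays, and 6 of 12 were lowest there (15.6% of all genes). The mean log2 signal of the fibroblast list ranged from 4.90 to 7.02 with abemaciclib 120, from 5.71 to 7.16 with abemaciclib 36, from 5.73 to 7.59 with ribociclib 300, from 5.71 to 6.06 with palbociclib 100, from 5.40 to 5.86 with palbociclib 30 and from 5.94 to 6.72 with vehicle. The part that fibroblast or vessel RNA has in the members' values was not tested.

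**Figure D3:**
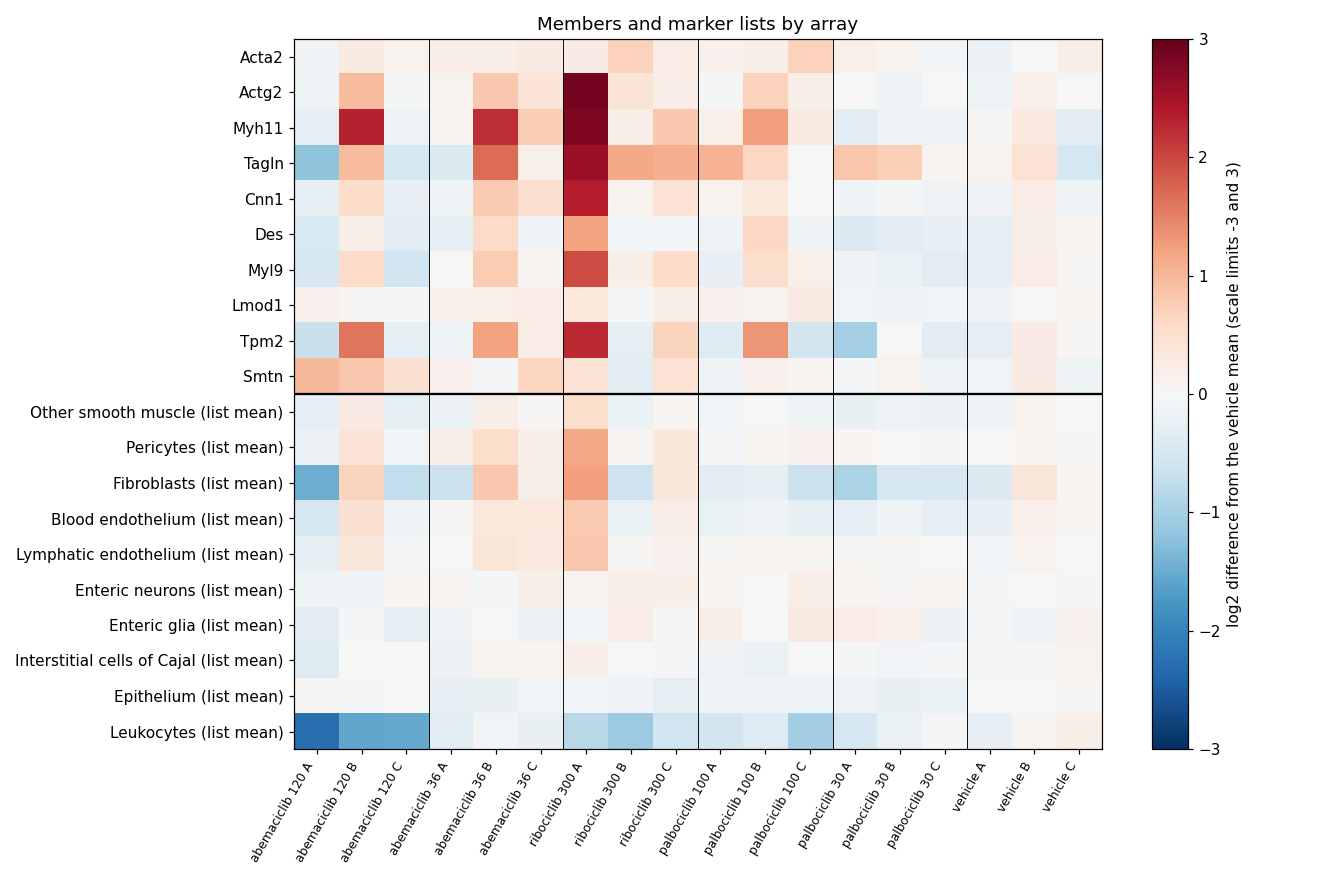
Log2 difference from the vehicle mean (colour) of each member and of the mean of each marker list (down the page) on each array (across the page). The dark red column at ribociclib 300 A covers Actg2, Myh11, Tagln, Cnn1, Myl9 and Tpm2 and goes on, paler, into the pericyte, fibroblast and endothelial lists (0.77 to 1.23), while neurons, glia, interstitial cells of Cajal and epithelium stay pale.

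Of 26 other genes of smooth muscle contraction and its cytoskeleton, 9 were highest on ribociclib 300 A (34.6%, against 4.07% of all genes). Cald1, caldesmon, which blocks myosin binding to actin, was 8.59, 5.01 and 6.43 with ribociclib 300 and 5.14, 6.33 and 5.61 with vehicle, and it was 7.38 on abemaciclib 120 B and 7.31 on abemaciclib 36 B. Mylk, the light chain kinase, lay between 10.73 and 11.71 and Tpm1, the other main muscle tropomyosin, between 10.59 and 11.31. On ribociclib 300 A, the highest array of Myh11, they were 11.63 and 11.01, against 11.53, 11.37 and 11.22 for Mylk and 11.03, 11.19 and 11.28 for Tpm1 on the vehicle arrays. The transcriptional activator Myocd stayed between 3.48 and 4.08, below the median of every array, so it was not shown to be above background. Its partner Srf lay between 7.82 and 9.41, with its highest value on ribociclib 300 B. Of 16 non-muscle counterparts 1 was highest on ribociclib 300 A (6.25%), near the 4.07% of all genes, so this count says nothing particular of them. The non-muscle actin Actg1 (13.71 to 14.17) and the non-muscle myosins Myh9 (10.04 to 10.89) and Myh14 (11.67 to 12.28) spanned less than 1 log2 unit, whereas the intermediate filament Vim, shared by fibroblasts and muscle, ran from 6.89 to 9.39.

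The genes most like the members were ranked by r with the mean of the 10 members, each centred and scaled, over the 18 arrays, as a description with no test. They were Ddr2, a collagen receptor (r = 0.94), the Z-disc protein Synpo2 (0.93), Cavin3 of caveolae (0.92), the secreted peroxidase Gpx3 (0.92), the sodium channel Scn7a (0.91), Pdlim3 of the Z-disc (0.90), the collagen lysyl hydroxylase Plod2 (0.90), the intermediate filament Synm (0.90), the matrix protein Sparc (0.89) and the BMP antagonist Nbl1 (0.89). Of these, Synpo2, Pdlim3 and Synm were also among the 26 other contractile and cytoskeletal genes. Nbl1, at most 5.13, lay below the median of every array, so it was not shown to be above background. Ddr2, Synpo2, Cavin3, Scn7a and Synm had mean signals of 4.52 to 5.23, below the lowest array median of 5.41. Sparc was 9.95 on ribociclib 300 A, its highest value, and as low as 6.11 elsewhere. Without that array the 10 values of r ran from 0.77 for Plod2 to 0.89 for Ddr2. Most opposed were C13h1orf74 (-0.76), C9h2orf69 (-0.76), Them4 (-0.75), Vps4a (-0.74) and Adss2 (-0.73). Among the members, the mean was closest to Myl9 (r = 0.96), Cnn1 (0.95), Actg2 (0.94) and Myh11 (0.94).

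The 6 groups were compared in limma with n = 3 arrays each and adjustment over all 14217 genes. Across the groups 0 of 10 members passed the F test, where 22.6% of all genes did, and 2 members, Smtn and Lmod1, had an unadjusted p under 0.05, as did 36.3% of all genes. All comparisons with vehicle share its 3 arrays. With 3 arrays a side the smallest exact permutation p is 0.1, so single genes rest on the limma model.

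With abemaciclib 120, 1 of 10 members passed, Smtn, where 18% of all genes passed and 9.6% passed as higher. An unadjusted p under 0.05 was also reached by 1 member, and by 29.7% of all genes. Smtn was also the 1 member with every abemaciclib 120 array above every vehicle array, as in 18.6% of all genes. Smtn averaged 5.81 ± 0.26 with abemaciclib 120 and 5.07 ± 0.21 with vehicle (SD, n = 3 each), a log2 difference of 0.75 (SE 0.22, 95% interval 0.29 to 1.20, 1.68-fold, adjusted p = 0.0248 in limma). The call was lost without abemaciclib 120 replicate A (adjusted p = 0.118) or B (0.0597), without vehicle replicate A (0.0796) or C (0.103), with the RNA quality difference as a covariate (0.49, adjusted p = 0.185) and with the mean of the 2 Smtn probe sets (0.30, adjusted p = 0.0842). The second, dim probe set, which enters that mean, had a log2 difference of -0.15 (adjusted p = 0.513). The RNA quality difference was 1.05, 0.92 and 0.86 on the abemaciclib 120 arrays and 0.65, 0.79 and 0.57 on the vehicle arrays. The other 9 members did not pass, and the median of the 10 was 0.06, against -0.02 for all genes. That median had no settled sign, with -0.22 without abemaciclib 120 B, 0.20 without abemaciclib 120 A and -0.0027 without vehicle A. Myh11 averaged 6.72 ± 1.46 with abemaciclib 120 and 6.09 ± 0.30 with vehicle (0.63, 95% interval -0.83 to 2.10, adjusted p = 0.618 in limma), and without abemaciclib 120 B the difference was -0.21.

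With abemaciclib 120, 2 of 26 other contractile and cytoskeletal genes passed, the actin crosslinker Actn1, which was higher, and Cnn2, calponin 2 of non-muscle cells, which was lower. Of 16 non-muscle counterparts 2 passed, Cnn2 and Cnn3, and of 13 transcription factors and 16 receptors and channels of smooth muscle 0 passed. Each of these shares was below the 18% of all genes. Cnn2 was 7.12, 7.99 and 7.49 with abemaciclib 120 and 8.86, 9.03 and 9.42 with vehicle (-1.57, SE 0.24, adjusted p = 0.000364 in limma). Cnn3, calponin 3, was 8.96, 8.39 and 8.37 with abemaciclib 120 and 7.03, 7.65 and 6.85 with vehicle (1.39, SE 0.41, adjusted p = 0.0275 in limma). Of the 3 calponins, Cnn2 thus fell and Cnn3 rose, and Cnn1 did not pass. Leukocyte genes fell in 6 of 9, where 18% of all genes passed in either direction, and the mean log2 signal of that list ranged from 4.78 to 5.50 with abemaciclib 120 and from 6.79 to 7.21 with vehicle. Of other cell types, 1 gene each fell among 12 of fibroblasts (Fbln1, -1.73, adjusted p = 0.0172 in limma), 9 of blood endothelium (Pecam1, -0.72, adjusted p = 0.0395), 5 of interstitial cells of Cajal (Prkcq, -0.80, adjusted p = 0.0117), 6 of glia (Erbb3, -1.26, adjusted p = 0.0436) and 14 of epithelium. Kit (-0.13) and Ano1 (-0.12) of the Cajal list did not pass. Among neurons, pericytes, lymphatic endothelium, mesothelium, striated muscle and acinar cells 0 genes passed. With 18% of all genes passing, a count of 1 in such short lists says nothing particular of these cell types.

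With abemaciclib 36, 0 of 10 members passed (2.08% of all genes did), and 0 had an unadjusted p under 0.05 (13.8% of all genes did). The median of the members was 0.33, against 0.01 for all genes, and it was 0.18 without abemaciclib 36 B and 0.51 without A. Myh11 averaged 7.10 ± 1.09 with abemaciclib 36 and 6.09 ± 0.30 with vehicle (1.02, 95% interval -0.45 to 2.49, adjusted p = 0.585 in limma), and without abemaciclib 36 B the difference was 0.42. Acta2 and Lmod1 were higher on all 3 abemaciclib 36 arrays than on any vehicle array, as were 7.95% of all genes. Their log2 differences were 0.22 (adjusted p = 0.7) and 0.18 (adjusted p = 0.394). Between the abemaciclib doses 0 of 10 members passed, where 7.59% of all genes did, and the median was -0.23, against -0.02 for all genes, with a range of -0.57 (without abemaciclib 120 B) to -0.07 (without abemaciclib 36 B) when 1 array was left out. Smtn was 0.51 higher in log2 signal at 120 (adjusted p = 0.183 in limma), the 1 member with an unadjusted p under 0.05 (21.0% of all genes). Lmod1 was lower on all arrays at 120 than at 36, as were 11.8% of all genes, and 0 members were higher on all of them, against 11.7% of all genes.

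With ribociclib 300, 0 of 10 members passed (3.73% of all genes did). An unadjusted p under 0.05 was reached by 4 of 10, where 20.2% of all genes reached it. Tagln averaged 8.07 ± 0.85 with ribociclib 300 and 6.48 ± 0.49 with vehicle (1.58, 95% interval 0.37 to 2.79, 2.99-fold, adjusted p = 0.132 in limma). Actg2 averaged 6.28 ± 1.49 with ribociclib 300 and 5.13 ± 0.15 with vehicle (1.15, 95% interval 0.10 to 2.20, adjusted p = 0.208 in limma). Cnn1 differed by 0.96 (adjusted p = 0.199), Myl9 by 0.90 (adjusted p = 0.21) and Myh11 by 1.26 (95% interval -0.21 to 2.73, adjusted p = 0.317). Acta2, Actg2 and Tagln were higher on all 3 ribociclib arrays than on any vehicle array, as were 10.4% of all genes.

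These differences rested in large part on 1 array. The member median was 0.89 with all ribociclib arrays and 0.28 without replicate A. Without it the log2 difference was 0.29 for Actg2, 0.27 for Cnn1, 0.37 for Myl9, 0.50 for Myh11, 0.19 for Tpm2 and -0.08 for Des. Tagln had 1.09 (adjusted p = 0.249) and Acta2, at 0.39 with all arrays, had 0.45 (adjusted p = 0.187 in limma). Across the 3 ribociclib arrays 2 of 9 leukocyte genes fell and 0 of 12 fibroblast genes passed, where 3.73% of all genes passed, a share at which 0 of 12 says nothing particular of fibroblasts.

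**Figure D4:**
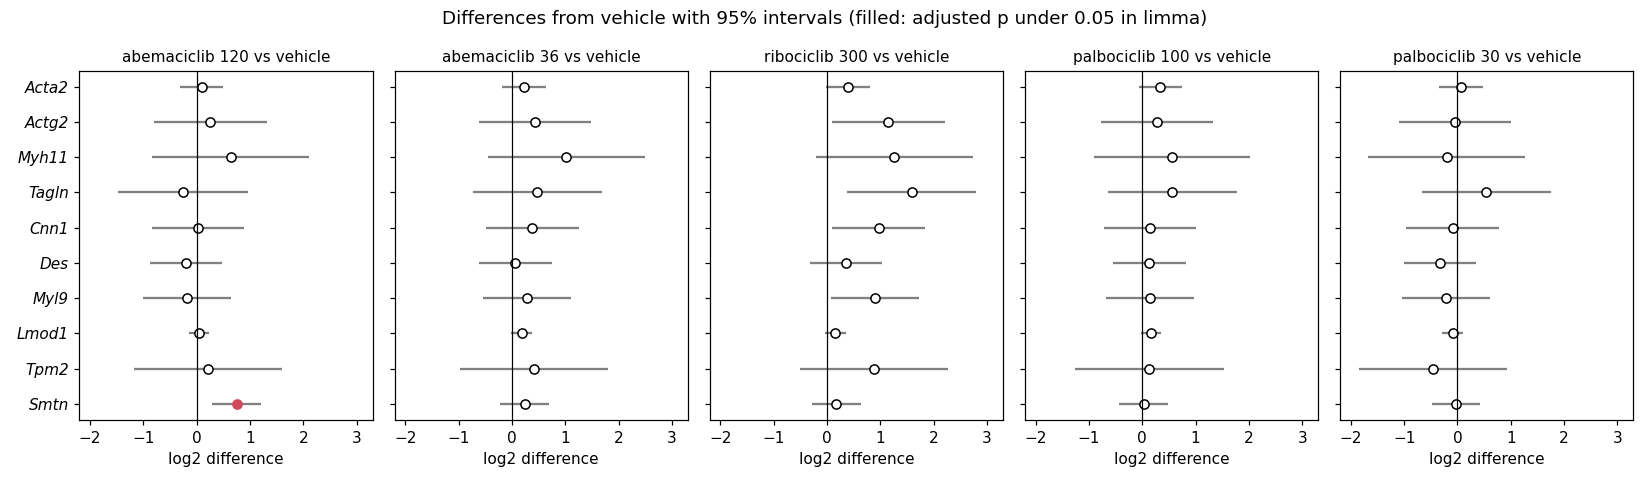
Log2 difference from vehicle of each member (points) with its 95% interval (bars) in limma, 1 panel per treated group, n = 3 arrays each. The filled point is Smtn with abemaciclib 120 (0.75), and the intervals of Myh11, Tagln and Tpm2 are wider than those of Acta2, Lmod1 and Smtn.

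With palbociclib 100, 0 of 10 members passed (0.0% of all genes did), 0 had an unadjusted p under 0.05 (7.2% of all genes) and the median of the members was 0.15, against 0.00 for all genes. Myh11 averaged 6.64 ± 0.60 with palbociclib 100 and 6.09 ± 0.30 with vehicle (0.56, 95% interval -0.91 to 2.02, adjusted p = 0.872 in limma). Without palbociclib 100 B that difference was 0.21 and the member median 0.05. Lmod1 was higher on all 3 arrays than on any vehicle array, as were 7.46% of all genes, with a log2 difference of 0.16 (adjusted p = 0.721). With palbociclib 30, 0 of 10 members passed (0.0% of all genes did), 0 had an unadjusted p under 0.05 (2.51% of all genes), 0 were higher on all 3 arrays than on any vehicle array (4.82% of all genes) and the median was -0.09, against -0.03 for all genes. The SD of Myh11 was 0.12 with palbociclib 30 and 0.30 with vehicle, and that of Tagln was 0.41 with palbociclib 30 and 0.49 with vehicle. Tpm2 spread more with palbociclib 30, at 0.53, against 0.27 with vehicle. Tagln, at 7.02 ± 0.41 with palbociclib 30 and 6.48 ± 0.49 with vehicle, had the highest difference of the members, 0.54.

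Between the palbociclib doses 0 of 10 members passed in limma (0.0% of all genes did), and the member median was 0.30, against 0.02 for all genes. Without palbociclib 100 B it was 0.15. The arrays of Myh11, Cnn1, Des and Lmod1 were all higher at 100 than at 30 mg/kg/day, as were those of 7.11% of all genes. Myh11 differed by 0.76 (95% interval -0.71 to 2.23, and 0.41 without palbociclib 100 B), Cnn1 by 0.23, Des by 0.46 and Lmod1 by 0.25 (95% interval 0.06 to 0.44), each with adjusted p = 0.997. Lmod1 was the 1 member with an unadjusted p under 0.05, which 4.35% of all genes had.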

How the data were processed

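Arrays were grouped by the treatment label. The deposited values are log2 signals per probe set, and the submitters' processing notes name RMA with 2 Affymetrix programs, Transcriptome Analysis Console and Expression Console, giving no versions. RMA as usually run equalises the distribution of signal between arrays, so a change in total RNA per cell would not be seen. Of 31099 probe sets, 57 were controls, 20826 had 1 symbol, 436 had several and 9780 were unnamed here. The probe set with the highest mean stood for a gene. The arrays hold no read counts, and their number limits the precision.

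The members, marker lists and tests were chosen with earlier results of these data known. One mean per group was fitted over the 18 arrays with limma 3.58.1 in R 4.3.3 (eBayes with an intensity trend). p-values are two-sided and adjusted by Benjamini and Hochberg over all genes, with a threshold of 0.05. The step was tested on simulated data. Correlations used 100000 permutations. Fold is 2 to the power of the log2 difference. Other steps used Python 3.11.15, pandas 2.3.3, numpy 2.4.6, scipy 1.17.1 and matplotlib 3.10.9.

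Named genes are the members, up to 3 genes of each marker list with the highest mean signal, a list of muscle, epithelial, stromal and neural genes and the non-muscle counterparts, the 10 genes most like the members and the 5 most opposed. Actn1 was named after its values were seen, as 1 of a count of 2. Alternatives were quantile normalization again, median centring, no genes below the 30th percentile, a gene's probe sets averaged or each taken alone, no trend, only the groups compared, the replicate letter as a block, RNA quality as a covariate and leaving out each array.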

Additional observations from a re-analysis of the deposited data

How the results depend on the processing

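Of 665 alternative values for 44 results, the counts of members called stayed within 1.5 times their value 123 times and moved 8 times. All main counts but that for abemaciclib 120 against vehicle were 0, and a 0 that stayed 0 was taken as kept. In the palbociclib comparisons 0 of all genes passed in the main fit. The 123 therefore says little of how stable a call is. The 29 log2 differences followed kept their direction and side of the threshold 418 times, lost a call 6 times and turned 5 times. The count of members called for abemaciclib 120 against vehicle was 0 with the mean of all probe sets and 0 with the RNA quality covariate, and 0 to 1 with 1 array left out. Over all genes, the F test called 3212 genes and 1246 with the covariate, and abemaciclib 120 called 2560 and 1596 with it. The F test called 1 member, Lmod1, after centring each array on its median, and 0 to 2 with 1 array left out, with Lmod1 and Smtn called without ribociclib 300 replicate B. The member median for ribociclib 300 ranged from 0.28 to 1.32 with 1 array left out. Tagln with abemaciclib 120 (-0.26) turned to 0.0566 with the RNA quality covariate and ranged from -0.87 to 0.21 with 1 array left out. With 1 array left out Myh11 ranged from -0.21 to 1.08 with abemaciclib 120, Tagln from -0.13 to 0.92 with abemaciclib 36 and Des from -0.0842 to 0.56 with ribociclib 300. The cause of these turns was not tested beyond the array left out.

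Median centring used the median of the 14217 genes on an array, not that of all its probe sets. It moved the difference of every gene from vehicle by -0.11 with abemaciclib 120, 0.07 with abemaciclib 36 and 0.18 with ribociclib 300. The shift was 0.11 with palbociclib 100 and 0.14 with palbociclib 30. Centring turned the member median to -0.04 with abemaciclib 120 and to 0.05 with palbociclib 30. Leaving out abemaciclib 120 B turned the first of these medians to -0.22, and leaving out vehicle A to -0.0027. With the replicate block, 1 member was called for abemaciclib 120, Smtn at adjusted p = 0.0354 in limma, and the block changed no call of a member. Deviations of arrays with the same letter correlated between -0.31 and 0.59 (median 0.05), so the letters were not taken as pairs. Replicate B nevertheless had the highest member mean of its group in 5 of 6 groups, ribociclib 300 being the exception, and the cause was not tested. Fitting only the groups compared was not run for the F test. Signals below the array median, on 18 of 18 arrays for Lmod1 and all but 1 for Cnn1, limit what can be seen of these genes.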

Other observations

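Etv1, a transcription factor listed here with the markers of interstitial cells of Cajal, had its 3 highest values on the 3 arrays with the highest Myh11. It was 6.14 on abemaciclib 120 B, 6.32 on abemaciclib 36 B and 6.23 on ribociclib 300 A, against 5.15, 5.33 and 4.95 on the vehicle arrays. Kit, the receptor that defines those cells, was 4.13, 4.30 and 4.41 on the same 3 arrays and 4.16, 4.20 and 4.43 on the vehicle arrays. Kit lay below the median of every array, so it was not shown to be above background and says little of those cells. Ano1, their chloride channel, was 5.91, 5.72 and 6.21 there and 6.47, 6.03 and 6.26 on the vehicle arrays.

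Pdgfra, a receptor of subepithelial fibroblasts, was 9.87, 9.31 and 9.61 on those 3 arrays and 7.06, 8.01 and 7.38 on the vehicle arrays, and 7.10 on palbociclib 100 B. Rgs5, a pericyte marker, was 6.14, 6.50 and 7.97 on the 3 arrays, 6.26 on palbociclib 100 B and 5.63, 5.37 and 4.70 on the vehicle arrays. The skeletal actin Acta1 was 9.51, 8.89 and 6.21 with abemaciclib 120 and 6.07, 5.66 and 6.31 with vehicle. Its highest value, 9.66, was on abemaciclib 36 A, and it was 9.44 on ribociclib 300 B, 9.08 on palbociclib 100 B and 6.69 on ribociclib 300 A, so high arrays were scattered over 4 treated groups. The cause of these values was not tested.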
